A study of Mus musculus with 4 samples.

Results

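The T cell receptor complex and the proteins that act directly beside it were followed through 9 genes: Cd3d, Cd3e, Cd3g, Cd247, Cd2, Cd4, Cd8a, Lck and Zap70. They were taken as a list by name, and every probe of each gene was read. All 9 were on the array, out of 20284 named genes, and were covered by 13 of 55678 probes. Total RNA came from 4 bone marrow fractions of 8-week-old female C57BL6 mice, for which the labels name no transgene, mutation or treatment. The long-term stem cells (LT-HSC) were sorted as CD34-ckit+Sca1+Lineage- and the short-term stem cells (ST-HSC) as CD34+ckit+Sca1+Lineage-. Progenitors were labelled ckit+Lineage-, and the differentiated cells (Lin+) were labelled Lineage+. A protocol text shared by the samples gives the progenitor gate as Sca1- and also names Lineage+ cells in it, so that gate is uncertain. The number of mice behind a fraction and the antibodies of the lineage set are not given in the sources used here. Such sets often hold antibodies against T cell surface proteins, so the protein of a gene described below may itself have been part of the gate.

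Each fraction was hybridised to 1 single-colour Agilent array, so the differences carry no test and no p-value. A level is the log2 of a probe's signal over the 75th percentile of its array, and a ± value is the spot error that Feature Extraction, the scanner software, computed. That error is one of reading the array, and it leaves out any spread between mice. The percentile lay between 137 and 230 intensity units and 40.9% to 45.9% of probes were well above background. The number of arrays, 1 per fraction, limits the precision. A probe that was not well above background in a fraction has only an upper limit there, and its difference is then given as at least N-fold, taken against a background limit: the lowest level above background on that array (-3.47 to -2.87), or the probe's own level if that was higher. Genes that differed by 2-fold or more, bounds included, were called, provided that 1 or both sides were well above background. The sorting genes followed the gates in part: Cd34 had a level of 7.34 in the LT-HSC fraction, 8.53 in ST-HSC, 7.51 in the progenitors and 3.26 in Lin+ cells, and Kit had 5.63, 5.004, 4.42 and 1.67 in that order. Ly6a, the gene of Sca1, for which both stem cell gates select, had 4.52, 3.12, 2.28 and 4.51, so it was as high in Lin+ cells as in LT-HSC and 2.61-fold higher than in ST-HSC. In Lin+ cells all 13 B cell markers, all 11 neutrophil markers and all 10 erythroid markers measured were well above background. In progenitors 6, 10 and 9 of them were too, and in LT-HSC 5, 7 and 6, so these counts alone do not set Lin+ cells apart. Summed marker signals, in multiples of each array's 75th percentile, were 540, 7985 and 4679 in Lin+ cells, against 27.4, 185 and 155 in progenitors. T lineage RNA was therefore measured in Lin+ cells within a mixed population. In such bulk samples, fewer cells of a type and less RNA per cell cannot be told apart.

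The antigen-binding chains of the T cell receptor have almost no cytoplasmic part and signal through the CD3 subunits, which carry tyrosine motifs called ITAMs. Lck, a Src family kinase held at the coreceptors CD4 and CD8, phosphorylates these motifs. The kinase ZAP-70 then docks on them and phosphorylates the adaptors LAT and SLP-76. T cells complete their development in the thymus, and marrow holds mature T cells that have returned from the blood. In mouse thymus, Lck is read from a proximal and a distal promoter.

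The 3 CD3 genes lie next to each other on chromosome 9, in the order Cd3g, Cd3d, Cd3e in the RefSeq gene table, yet Cd3e differed from its neighbours across the fractions. Lck was well above background in every fraction and has 2 annotated starts. The 250 bases before these starts are therefore shown, 5′ to 3′ on the gene's strand, from RefSeq promoter windows of build GRCm38.p6. Capitals mark matches to the TCF and LEF core TCAAAG, the RUNX core TGTGGT, the core AGATAA bound by GATA factors, the TATA box written as TATAAA and the E-box CANNTG, searched on both strands.
Cd3g, chr9:44980432-44980681, minus strand: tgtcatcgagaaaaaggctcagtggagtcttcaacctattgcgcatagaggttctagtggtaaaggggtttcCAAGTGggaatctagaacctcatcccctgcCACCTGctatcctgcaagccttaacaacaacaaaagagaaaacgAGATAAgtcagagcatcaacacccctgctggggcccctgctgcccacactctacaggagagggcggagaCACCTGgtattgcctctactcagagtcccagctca
Cd3d, chr9:44981536-44981785, plus strand: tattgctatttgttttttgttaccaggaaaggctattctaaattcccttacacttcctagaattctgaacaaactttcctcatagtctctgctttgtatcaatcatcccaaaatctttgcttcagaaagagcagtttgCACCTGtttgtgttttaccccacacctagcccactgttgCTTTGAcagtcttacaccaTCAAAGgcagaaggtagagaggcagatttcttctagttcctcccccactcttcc
Cd3e, chr9:45009612-45009861, minus strand: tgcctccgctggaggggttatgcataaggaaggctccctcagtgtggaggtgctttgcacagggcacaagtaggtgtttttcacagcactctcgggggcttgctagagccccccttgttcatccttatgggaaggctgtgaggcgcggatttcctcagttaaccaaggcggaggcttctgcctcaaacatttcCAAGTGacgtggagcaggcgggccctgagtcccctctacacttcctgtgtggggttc
Lck, upstream start, chr4:129573642-129573891, minus strand: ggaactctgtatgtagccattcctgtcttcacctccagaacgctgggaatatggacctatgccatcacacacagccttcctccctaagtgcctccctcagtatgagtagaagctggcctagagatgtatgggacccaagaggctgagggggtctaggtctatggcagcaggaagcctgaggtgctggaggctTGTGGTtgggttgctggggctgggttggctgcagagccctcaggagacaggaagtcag
Lck, downstream start, chr4:129558373-129558622, minus strand: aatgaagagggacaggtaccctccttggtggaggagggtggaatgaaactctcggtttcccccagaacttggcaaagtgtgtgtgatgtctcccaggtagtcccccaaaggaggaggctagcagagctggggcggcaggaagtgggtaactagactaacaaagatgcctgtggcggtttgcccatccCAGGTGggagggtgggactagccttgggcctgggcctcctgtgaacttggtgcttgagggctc

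The Cd3d window held 2 matches to the TCF and LEF core and 1 E-box, the Cd3g window 1 GATA core and 3 E-boxes, and the Cd3e window 1 E-box only. The upstream Lck window held 1 RUNX core and the downstream one 1 E-box. Windows were given for 7 of the 9 genes, 10 windows in all. Of the 10, 2 held TCAAAG, 2 held TGTGGT, 1 held AGATAA, 0 held TATAAA and 9 held CANNTG. Over all 32817 RefSeq windows of this length, 13.8% held TCAAAG, 14.0% TGTGGT, 9.99% AGATAA, 12.4% TATAAA and 66.2% CANNTG. The ETS core GGAA, not capitalised, was in 9 of the 10 windows and in 93.4% of all windows, and 1 of its matches overlapped an E-box in each of the Cd3g, Cd3e and Cd8a windows. None of the other matches overlapped each other. A match is a string of letters and not a binding site.

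By their brightest probes, all of the 9 genes but Cd8a had their highest level in Lin+ cells, although Cd3e and Cd4 led progenitors by little more than the spot error or less. Against progenitors, 6 of the 9 genes were called higher in Lin+ cells and 0 lower, and over all 12990 genes compared 14.5% were called higher and 26.4% lower. The 6 were Cd2, Cd3d, Zap70, Cd3g, Lck and Cd247. The members' median difference, with lower bounds at their bound, was 2.18 on the log2 scale, against -0.33 over all genes compared. The median of genes measured on both sides was -0.42 here, so an ordinary gene read somewhat lower in Lin+ cells. Scaling to the array median moved every difference by -0.07, and scaling to spike-ins moved it by 0.60, which left 5 and 6 members called higher. Cd3e, Cd4 and Cd8a were not called.

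**Figure D1:**
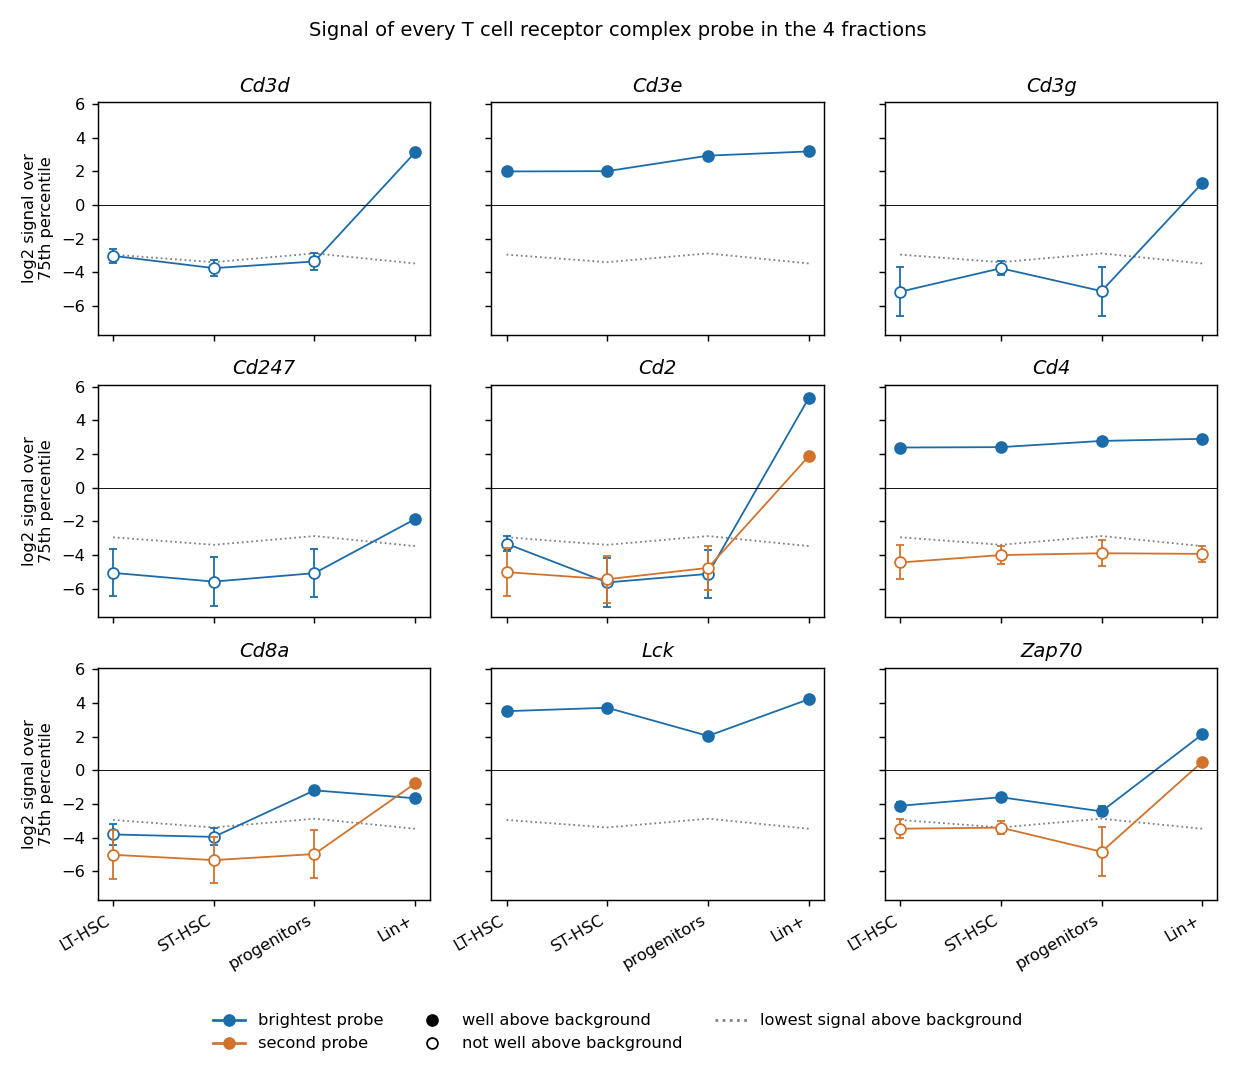
Level of each of the 13 probes (y axis, log2 signal over the array's 75th percentile) in the 4 fractions in the order of differentiation (x axis), 1 panel per gene. Bars are the spot error, open points were not well above background and the dotted line is the lowest level above background on each array. Cd3d, Cd3g, Cd247 and Cd2 lie above that line only in Lin+ cells, while Cd3e, Lck and 1 Cd4 probe lie above it in every fraction.

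Of the 13 probes, 7 were well above background only in Lin+ cells, a pattern that 3.92% of named probes had. They were the probes of Cd3d, Cd3g and Cd247, both Cd2 probes, the second Cd8a probe and the second Zap70 probe. The brightest probes of Cd3e, Cd4, Lck and Zap70 were above background on all 4 arrays, as were 50.6% of named probes. The second Cd4 probe was above background on no array, and the first Cd8a probe was above it in progenitors and Lin+ cells.

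Among the CD3 subunits, Cd3d encodes CD3δ, which pairs with CD3ε in the receptor. Its 1 probe had a level of -3.01 (LT-HSC), -3.74 (ST-HSC), -3.35 (progenitors) and 3.14 (Lin+), and was well above background in Lin+ cells only. Lin+ cells were at least 64.4-fold higher than progenitors, at least 92.3-fold higher than ST-HSC and at least 67.7-fold higher than LT-HSC. The 3 stem and progenitor levels have no order, because all are under the background limit.

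Cd3g encodes CD3γ, the other partner of CD3ε. Its level was -5.15 in the LT-HSC fraction, -3.75 in ST-HSC, -5.11 in the progenitors and 1.32 in Lin+ cells, again above background in Lin+ cells only. The difference was at least 18.2-fold over progenitors, 26.1-fold over ST-HSC and 19.1-fold over LT-HSC. Cd3d and Cd3g thus shared their detection pattern, with the same 3 fractions not well above background.

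Cd3e encodes CD3ε, the subunit present in both CD3 pairs. Its level was 2.002 (LT-HSC), 2.02 (ST-HSC), 2.94 (progenitors) and 3.19 (Lin+), well above background on every array. LT-HSC and ST-HSC differed by 0.02 ± 0.20 and Lin+ cells and progenitors by 0.25 ± 0.20, and the low pair and the high pair were about 2-fold apart. Lin+ cells were higher than ST-HSC by 1.17 ± 0.20 and higher than LT-HSC by 1.19 ± 0.20, just past the 2-fold call. With arrays scaled to their median both values were 0.94, under the call. Progenitors exceeded ST-HSC by 0.92 ± 0.20 and LT-HSC by 0.94 ± 0.20, just short of it. Cd3e rests on 1 probe whose specificity was not examined, so its signal in stem cells does not show that the transcript was there.

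Cd247 encodes CD3ζ, the chain with the most ITAMs in the complex. Its level was -5.05 in the LT-HSC fraction, -5.57 in ST-HSC, -5.07 in the progenitors and -1.86 in Lin+ cells, above background in Lin+ cells only. Its signal in Lin+ cells was 63.6 intensity units, not far over background. Lin+ cells were at least 2.02-fold higher than progenitors, 2.89-fold higher than ST-HSC and 2.12-fold higher than LT-HSC. The bound over progenitors fell under the call with median scaling (0.94 on the log2 scale), quantile normalization (0.999) and normexp background correction (0.39). That over LT-HSC did so with the same settings (0.83, 0.96 and 0.49), and that over ST-HSC with normexp only (0.68).

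**Figure D2:**
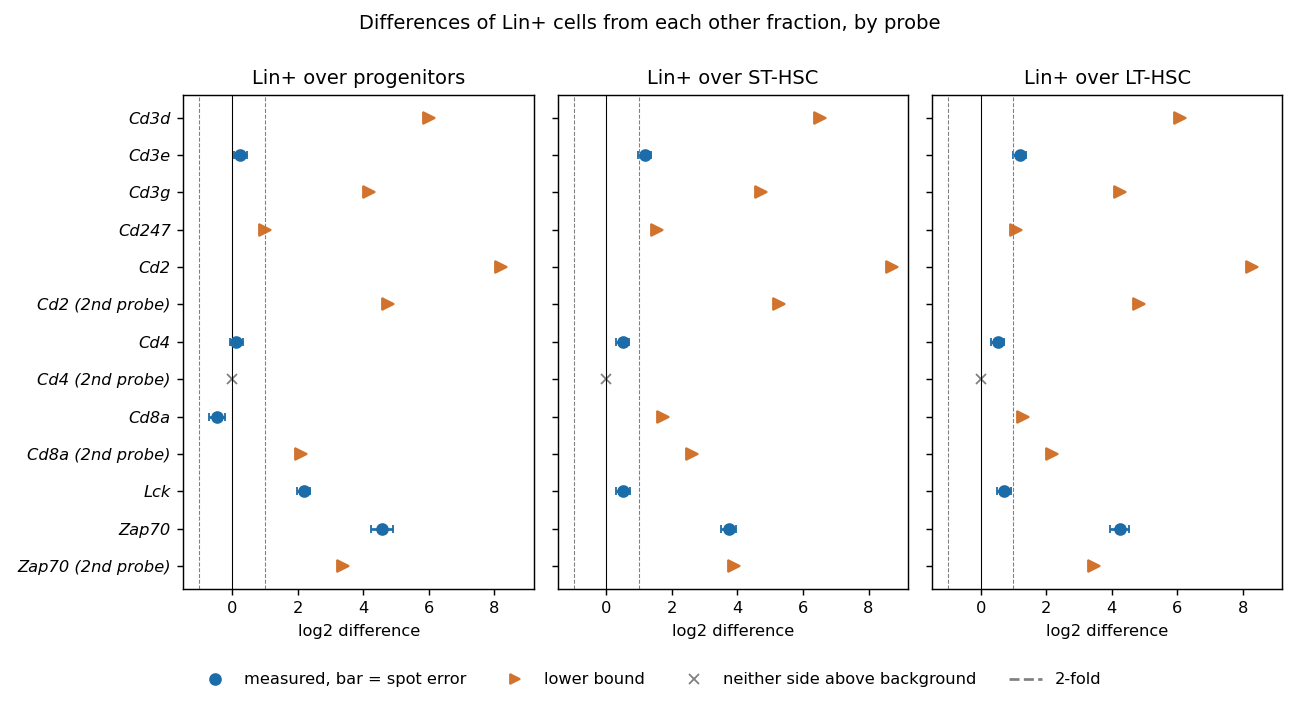
Log2 difference of Lin+ cells from progenitors, ST-HSC and LT-HSC (x axis, 1 panel each) for each of the 13 probes (rows). Points are measured differences with the spot error as bars, triangles are lower bounds, a cross means that neither side was above background, and dashed lines mark 2-fold. Every call lies to the right, with Cd2 and Cd3d farthest, and the 2 probes of Cd4 and of Cd8a differ.

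CD2 is an adhesion receptor that binds CD48 in mouse and adds to T cell activation, and it is also carried by NK cells and by B lineage cells of the mouse. The brightest Cd2 probe had levels of -3.32 (LT-HSC), -5.62 (ST-HSC), -5.12 (progenitors) and 5.33 (Lin+), where its signal was 9297 intensity units. Lin+ cells were at least 295-fold higher than progenitors, 423-fold higher than ST-HSC and 310-fold higher than LT-HSC. The second probe, printed 10 times on each array, had levels of -5.01, -5.43, -4.76 and 1.88 in the same order and gave at least 26.8-fold, 38.5-fold and 28.2-fold. Both probes were above background in Lin+ cells only. They agreed on direction, and neither bound limits how large the difference was.

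Cd4 encodes the coreceptor that binds MHC class II, and its probes disagreed. The brightest one, A_55_P2013655, had levels of 2.39 in the LT-HSC fraction, 2.42 in ST-HSC, 2.78 in the progenitors and 2.91 in Lin+ cells, above background on every array. Lin+ cells were higher than progenitors by 0.13 ± 0.20, than ST-HSC by 0.49 ± 0.20 and than LT-HSC by 0.52 ± 0.20, none of them called. The other probe, A_52_P383089, was printed 10 times and had mean levels of -4.44, -3.997, -3.89 and -3.93, with 0 of its kept spots well above background on any array. In Lin+ cells 6 of its 10 spots were kept after outlier flags. The 2 probes were filed under the same transcript, so the data do not settle whether Cd4 RNA was present in any fraction.

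Cd8a encodes the α chain of CD8, the coreceptor for MHC class I, and its probes disagreed about progenitors. The brighter probe, A_52_P150547, had levels of -3.80 (LT-HSC), -3.95 (ST-HSC), -1.18 (progenitors) and -1.65 (Lin+). By this probe Lin+ cells differed from progenitors by -0.47 ± 0.25, not called, with 0.13 after spike-in scaling, and were at least 3.33-fold higher than ST-HSC and 2.44-fold higher than LT-HSC. Progenitors were at least 4.61-fold higher than ST-HSC and 3.38-fold higher than LT-HSC. With normexp background correction the Lin+ bounds over ST-HSC and LT-HSC were 0.59 and 0.60 on the log2 scale, under the call. The other probe, A_52_P443334, printed 10 times and filed under another transcript record of the gene, had levels of -5.01, -5.33, -4.97 and -0.77. It was above background in Lin+ cells only, in all 9 spots kept there, and placed them at least 4.29-fold over progenitors, 6.15-fold over ST-HSC and 4.51-fold over LT-HSC. By this probe progenitors held no detectable Cd8a signal. Under the mean of both probes the Lin+ difference from progenitors was 1.86. That mean lay under the background limit of -2.87 in progenitors and was not raised to it. The value of 1.86 therefore exceeds the bound that the rule used elsewhere would give.

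**Figure D3:**
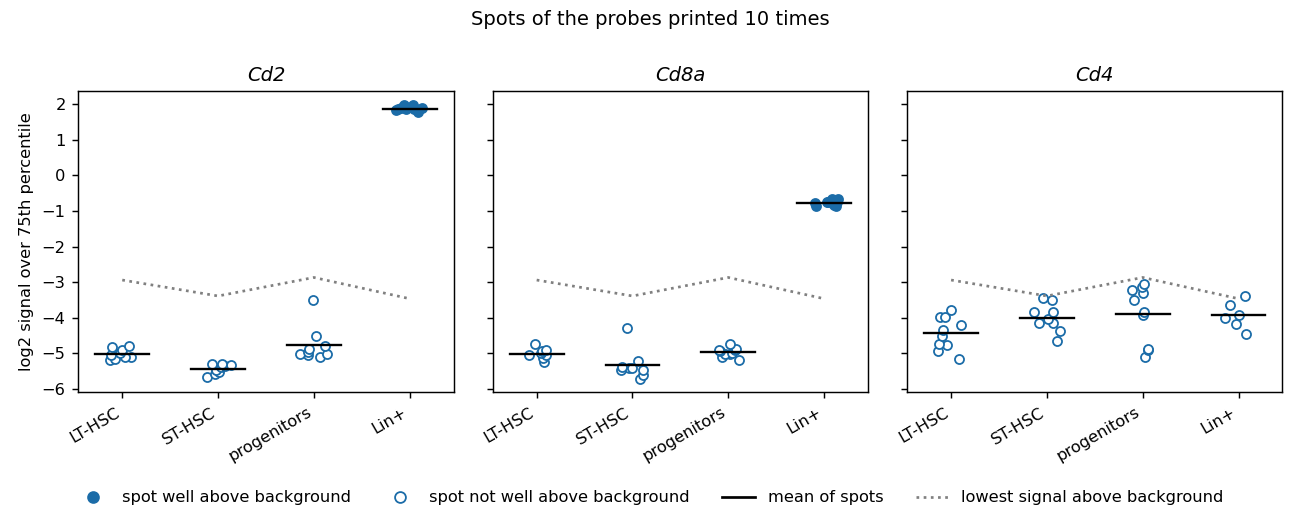
Each kept spot of the 3 probes printed 10 times (y axis, log2 signal over the array's 75th percentile) in the 4 fractions (x axis). Filled points were well above background, horizontal bars are the mean of the spots and the dotted line is the lowest level above background. The Lin+ spots of Cd2 and Cd8a lie apart from all spots of the other fractions, and those of Cd4 do not.

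The repeated spots show the reading error directly. In Lin+ cells the 10 Cd2 spots ran from 1.77 to 1.97 (SD 0.062 between spots) and the 9 Cd8a spots from -0.87 to -0.66 (SD 0.075). The highest Cd8a spot in any other fraction, in ST-HSC, was -4.28, so no spot of another fraction came near them. The Cd4 spots spread from -4.44 to -3.38 in Lin+ cells and from -5.11 to -3.06 in progenitors, and overlapped.

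Lck encodes the kinase that starts the cascade, and its signal was bright in every fraction. Its 1 probe had levels of 3.52 in the LT-HSC fraction, 3.72 in ST-HSC, 2.05 in the progenitors and 4.23 in Lin+ cells. Progenitors were lowest and Lin+ cells highest, and the 2 stem cell fractions differed by 0.20 ± 0.20, no more than the spot error. Lin+ cells were higher than progenitors by 2.18 ± 0.20, or 4.53-fold, but higher than ST-HSC by only 0.51 ± 0.20 and than LT-HSC by 0.71 ± 0.20. Progenitors were lower than ST-HSC by a log2 difference of -1.67 ± 0.20 and than LT-HSC by -1.47 ± 0.20. Lck was the only gene of the 9 called lower in progenitors than in either stem cell fraction at these settings. Like Cd3e, Lck rests on 1 probe whose specificity was not examined. Its signal in stem cells therefore does not show that the transcript was there.

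Zap70 encodes the Syk family kinase that reads the phosphorylated CD3 motifs. Its brightest probe had levels of -2.10 (LT-HSC), -1.59 (ST-HSC), -2.43 (progenitors) and 2.15 (Lin+), all above background though the first 3 only narrowly. Lin+ cells were higher than progenitors by 4.58 ± 0.33 (23.9-fold), than ST-HSC by 3.74 ± 0.23 (13.3-fold) and than LT-HSC by 4.25 ± 0.29 (19.0-fold). The second probe had levels of -3.46, -3.40, -4.83 and 0.52, above background in Lin+ cells only, and gave at least 10.4-fold, 14.98-fold and 10.98-fold. Both Zap70 probes therefore placed Lin+ cells far above the rest. They differed on whether the earlier fractions were well above background. In ST-HSC the second probe, at -3.40, lay just under the background limit of -3.39.

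With normexp background correction, run with an offset of 50 added to the signal, the large differences of Lin+ cells from progenitors shrank. Cd2 then differed by 6.65, Cd3d by 4.10, Zap70 by 3.01 and Cd3g by 2.59 on the log2 scale, all still called. Lck stayed at 2.20.

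Against ST-HSC, 7 of the 9 genes were called higher in Lin+ cells and 0 lower, where 15.5% of 13302 genes were called higher and 21.4% lower. Against LT-HSC the counts were also 7 and 0, with 16.1% of 13285 genes called higher and 23.2% lower. In both, the 7 were Cd2, Cd3d, Cd3g, Zap70, Cd8a, Cd247 and Cd3e, and Cd4 and Lck were not called. The members' median difference was 1.73 over ST-HSC, against -0.23 for all genes, and 1.29 over LT-HSC, against -0.15. The 3 comparisons share the Lin+ array, so they are not independent of each other.

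Progenitors set against ST-HSC gave only 5 members with a side above background. Cd8a was called higher by its brighter probe and Lck lower, where 10% of all genes were called higher and 10.2% lower. Over LT-HSC the same 2 genes were called in the same directions, where 15.5% of genes were called higher and 13.8% lower. Zap70 differed from ST-HSC by -0.84 ± 0.34 in progenitors, and by -1.10 to -1.46 under scaling to probes detected on all arrays and to spike-ins, which would call it lower. Between ST-HSC and LT-HSC, 0 of 4 comparable members were called in either direction, where 5.81% of genes were called higher and 9.01% lower. Their differences were 0.02 for Cd3e, 0.02 for Cd4, 0.20 for Lck and 0.51 ± 0.30 for Zap70.

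The chains that bind antigen could not be followed. Of 9 listed chain genes only Ptcra, the pre-T receptor α chain of developing thymocytes, matched a probe by name, and it was above background on no array. The other 8 were not analysed here.

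Surface proteins that stand beside the receptor on T cells were mostly higher in Lin+ cells. Of 15 comparable genes of a list of 18, 11 were called higher and 2 lower against progenitors, with a median of 1.82. The shares over all genes were 14.5% higher and 26.4% lower. Against ST-HSC 9 of 16 were higher and 4 lower, where 15.5% of all genes were higher and 21.4% lower. Against LT-HSC 10 of 16 were higher and 4 lower, where 16.1% of all genes were higher and 23.2% lower. Thy1, a surface glycoprotein of mouse T cells and stem cells, had levels of 2.11 in the LT-HSC fraction, 2.38 in ST-HSC, 0.22 in the progenitors and 3.74 in Lin+ cells. Lin+ cells exceeded progenitors by 3.52 ± 0.21, and Thy1, like Lck, was lowest in progenitors. Btla, an inhibitory receptor also carried by B cells, was higher by 3.49 ± 0.34, Cd7 by 3.21 ± 0.21 and Cd5, a brake on receptor signalling, by 2.93 ± 0.23. The 2 genes lower than in progenitors were Cd27, a TNF receptor family costimulator, at -2.77 ± 0.24, and the inhibitory receptor gene Pdcd1, at least 2.42-fold lower. These 2 were named after their values were seen.

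Cd8b1, the gene of the CD8 β chain, lies beside Cd8a. Its level was -5.00 (LT-HSC), -5.47 (ST-HSC), -4.94 (progenitors) and 0.58 (Lin+), above background in Lin+ cells only. Lin+ cells were at least 10.9-fold higher than progenitors. Its detection pattern was that of the second Cd8a probe and not of the brighter one. Which of the Cd8a probes read Cd8a RNA in progenitors was not tested.

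**Figure D4:**
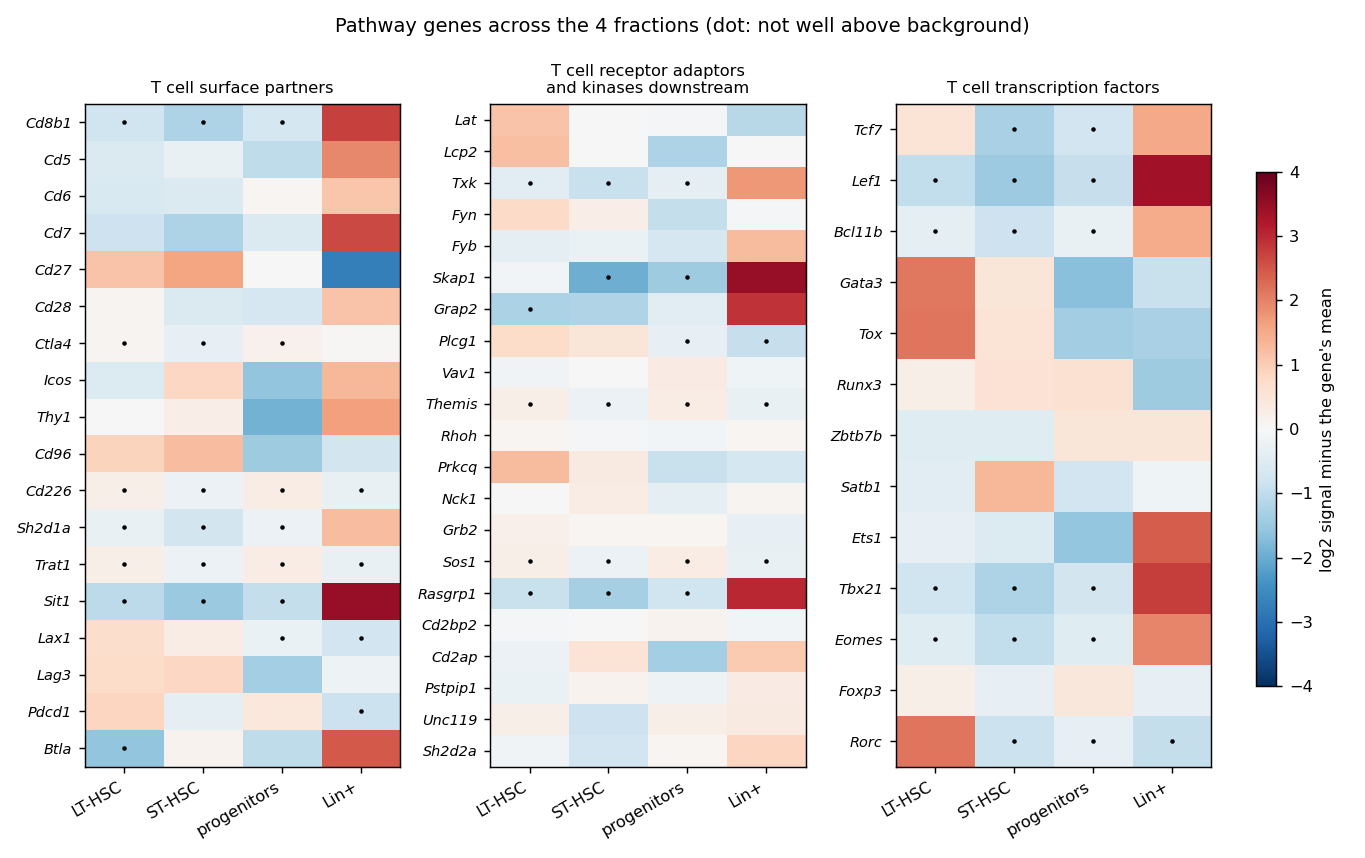
Level of genes from the lists of surface partners, of adaptors and kinases downstream and of T cell transcription factors (rows) in the 4 fractions (columns), as log2 signal minus the gene's own mean, with values below the background limit raised to it. Red is above and blue below a gene's mean, and a dot means not well above background. Many rows are reddest in Lin+ cells, and Lat, Gata3 and Tox are reddest in LT-HSC.

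Downstream of the kinases, the adaptors and enzymes were split. Of 20 comparable genes of a list of 23, 9 were called higher in Lin+ cells than in progenitors and 1 lower. The shares over all genes were 14.5% and 26.4%. Against LT-HSC 9 of 21 were higher and 4 lower, where 16.1% of all genes were higher and 23.2% lower. Grap2, the adaptor Gads, was higher than in progenitors by 3.30 ± 0.26 and Cd2ap, which binds the tail of CD2, by 2.41 ± 0.23. Lat, the membrane adaptor that ZAP-70 phosphorylates, was the 1 gene called lower, and it is also used by mast cells and platelets. It had levels of 3.45 (LT-HSC), 2.34 (ST-HSC), 2.27 (progenitors) and 1.22 (Lin+), with a Lin+ difference from progenitors of -1.05 ± 0.20, and of -0.45, no longer called, after spike-in scaling. Lin+ cells differed from LT-HSC by -2.24 ± 0.20. Lat was highest in LT-HSC and lowest in Lin+ cells, and was named after its values were seen.

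Among genes that restrain the kinases, 3 of 14 comparable genes were called higher in Lin+ cells than in progenitors and 1 lower. Over all genes 14.5% were called higher and 26.4% lower. The list's median difference was 0.42, against -0.33 over all genes compared. Ptprc, which encodes CD45, a phosphatase that sets Lck activity in both directions, was higher in Lin+ cells than in progenitors by 3.51 ± 0.22. Dgka, which removes diacylglycerol, was higher by 2.12 ± 0.21 and the adaptor gene Sla by 1.29 ± 0.20. Ubash3a, a phosphatase family gene of T cells, was lower at -1.24 ± 0.21, and at -0.64, not called, after spike-in scaling. That scaling raised the list's calls to 8 higher and 0 lower. Without that scaling the other 10, among them Csk, which keeps Lck inactive, were not called.

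The relatives of Lck and Zap70 and the ITAM adaptors of other lineages were higher in Lin+ cells too. In that list, which includes Lck, Zap70 and Cd247, 12 of 14 comparable genes were called higher than in progenitors and 0 lower. The shares over all genes were 14.5% higher and 26.4% lower. Fgr, a Src family kinase of myeloid cells, was at least 38.05-fold higher and Blk, of B cells, at least 7.74-fold higher than in progenitors. Syk, the relative of Zap70 in B and myeloid cells, was bright throughout at 4.65, 4.73, 4.50 and 5.63, and Lin+ cells exceeded progenitors by 1.13 ± 0.20. Fyn, the other Src family kinase of T cells, had levels of -0.33, -0.83, -2.05 and -1.16 and was lowest in progenitors, as Lck was. The B cell ITAM gene Cd79a was at least 16.9-fold higher and Cd79b higher by 2.87 ± 0.20, and the myeloid and NK adaptors Fcer1g and Tyrobp were higher by 1.77 ± 0.20 and 1.47 ± 0.20.

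T cell transcription factors were divided. Of 12 comparable genes 6 were called higher in Lin+ cells than in progenitors and 1 lower, where 14.5% of all genes were higher and 26.4% lower. Against ST-HSC 6 of 12 were higher and 4 lower, with shares of 15.5% and 21.4% over all genes. Against LT-HSC 5 of 13 were higher and 4 lower, with shares of 16.1% and 23.2%. Over progenitors, Ets1, an ETS factor of lymphocytes, was higher by 3.98 ± 0.23 and Lef1 at least 19.2-fold. Tbx21, the factor T-bet of T helper and NK cells, was at least 11.1-fold higher. Runx3, which acts in CD8 T cells, was lower by its brightest probe at -2.02 ± 0.21, while its second probe had levels of -1.66 in Lin+ cells and -1.25 in progenitors. Gata3 and Tox, named after their values were seen, were highest in LT-HSC: Gata3 had levels of 1.81, 0.17, -1.97 and -1.20 in the order of the fractions, and Tox 1.76, 0.19, -1.77 and -1.67.

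**Figure D5:**
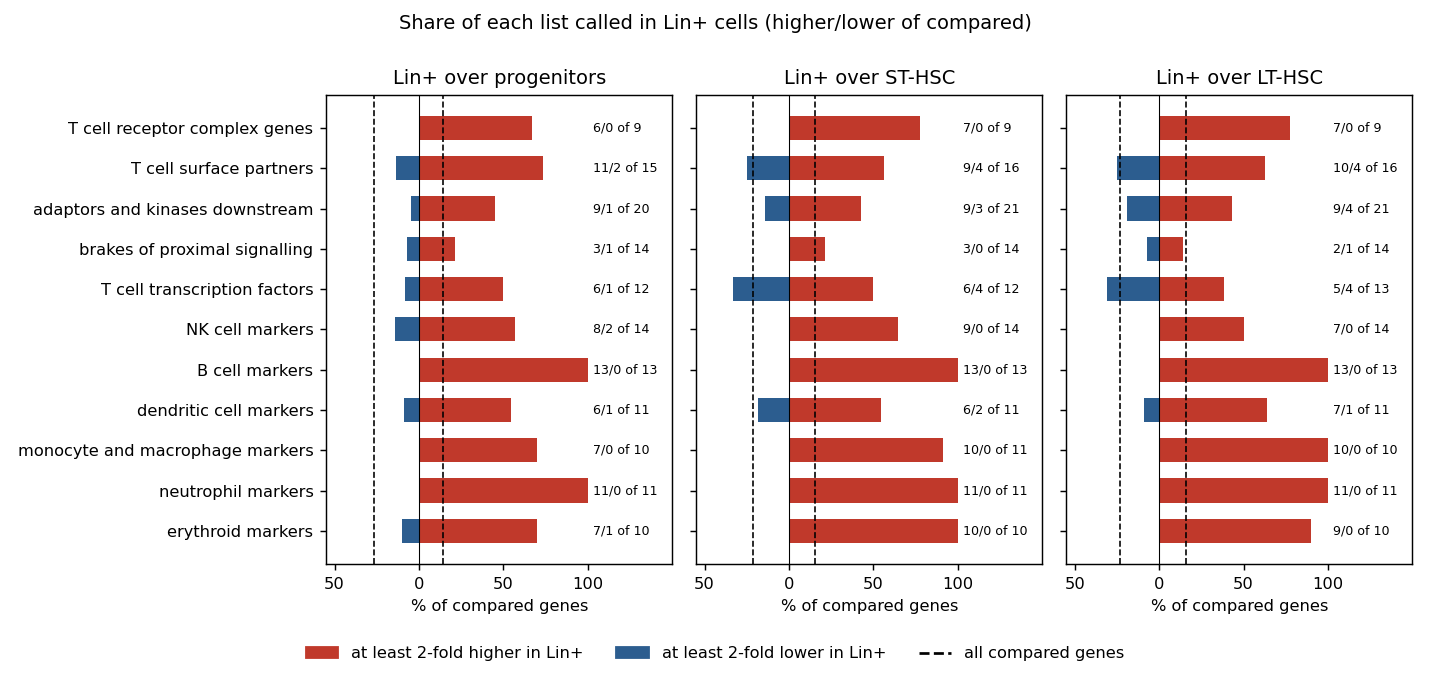
Share of the comparable genes of each list (rows) called at least 2-fold higher (red, to the right) or lower (blue, to the left) in Lin+ cells than in progenitors, ST-HSC and LT-HSC (panels), with the counts printed. Dashed lines are the shares over all genes compared. The 9 T cell receptor complex genes have 6, 7 and 7 calls higher and 0 lower, and the B cell and neutrophil lists are called higher throughout.

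Markers of other cells moved in the same direction, and their part in the results above was not tested. Of 14 comparable NK cell markers 8 were called higher in Lin+ cells than in progenitors and 2 lower. The shares over all genes were 14.5% higher and 26.4% lower. Of the 15 NK cell markers on the array, 14 were above background in Lin+ cells, against 5 in progenitors, 7 in ST-HSC and 8 in LT-HSC. NK cells share Cd2, Cd247, Lck and Zap70 with T cells. The summed signal of the NK list, in multiples of each array's 75th percentile, was 150 in Lin+ cells, against 177 in progenitors, 81.9 in ST-HSC and 52.8 in LT-HSC. Nkg7, a granule protein gene of NK and cytotoxic T cells, set that order: without it the sum was 68.9 in Lin+ cells, against 9.24 in progenitors, 11.1 in ST-HSC and 16.1 in LT-HSC. Leaving out Nkg7 was chosen after its values were seen. The summed signal of the 9 T cell receptor complex genes was 92.1 in Lin+ cells, against 19.5 in progenitors, 23.2 in ST-HSC and 21.3 in LT-HSC. Few genes set this sum too. In Lin+ cells the brightest were Cd2, at a level of 5.33, and Lck, at 4.23. In every other fraction they were Cd3e, Cd4 and Lck, whose probes were not examined for specificity. All 13 B cell markers were called higher in Lin+ cells, with summed signals of 540 in Lin+ cells, 27.4 in progenitors, 34.2 in ST-HSC and 29.8 in LT-HSC.

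Genes that neighbour the members did not share one pattern. Mpzl2, next to Cd3e, was above background on no array. Lag3, on one side of Cd4, had levels of 0.08 (LT-HSC), 0.16 (ST-HSC), -2.03 (progenitors) and -0.85 (Lin+), and Gpr162 on the other side had -2.00, -2.89, -3.15 and -0.47. Neither showed the near-constant signal of the brightest Cd4 probe. Hdac1, beside Lck, stayed between 6.01 and 6.30 in all fractions, and Creg1, beside Cd247, between 6.61 and 7.51.

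The genes whose profile lay nearest to the mean profile of Cd3d, Cd3e and Cd3g were Gpr141, Rflnb, Il2ra, Scimp, Cdkl1 and Ceacam2. Likeness was the Euclidean distance over the 4 arrays between profiles on the log2 scale, each minus its own mean and with low values raised to the background limit, and the 6 distances ran from 0.134 to 0.209. Gpr141 had levels of -4.97 in the LT-HSC fraction, -5.44 in ST-HSC, -2.60 in the progenitors and 0.77 in Lin+ cells. Il2ra, the interleukin-2 receptor α chain of activated T cells and of early lymphoid cells, had -4.77, -5.25, -4.75 and 0.78. Without Cd3e the nearest gene was Tent5c, at a distance of 0.0732, followed by Alox15, Cd36, Ebf1, Stfa3 and Pilrb2, so Cd3e alone changed all 6 names. Cd3d, Cd3g and all of these genes but Tent5c were above background in Lin+ cells only. With their other levels raised to the same limits, their likeness rests on the Lin+ level alone. That second search was added after the first was seen.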

How the data were processed

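RNA of 4 sorted fractions was hybridised to 1-colour arrays, and 10 ng of total RNA was amplified and labelled with Cy3 together with spike-in controls, per the labels' protocols. The deposited scanner files give linear spot intensity, which Agilent Feature Extraction 10.7.1.1 (per the submitters' processing notes) had background-subtracted within each array, per the file headers, and not scaled between arrays. All 4 arrays shared 1 slide and 1 scan time. Batches of sorting, extraction or labelling are not given in the sources used here, and could not be told apart from the fractions. The authors' deposited value table gives each probe as a linear ratio. It equalled the processed signal over 1 constant per array (191, 217, 137 and 230) within 1% for 100% of probes compared, beside 75th percentiles of 192, 217, 137 and 230. This settles its scale, its centring and its direction. The medians of its columns were 0.0619, 0.0630, 0.0704 and 0.0738, and it was an alternative.

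Outlier-flagged spots and controls were removed, 0 spots were saturated, and the log2 values of repeated spots were averaged. Of 55681 probes 3 were dropped. Each array's log2 signal was scaled to its 75th percentile over non-control probes. Probes carry a transcript accession in the files. Of them 26762 (48.1%) found a gene in the RefSeq table of GRCm38.p6, ignoring versions. The array design uses mm9, so that table gave names and gene order only, and promoter windows carry their own build. The probe with the highest mean level stood for a gene, and every probe of the 9 genes is given. The median spot error was 0.146 on the log2 scale.

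The 6 pairs of fractions were compared with no test, since each had 1 array. The members and the 13 gene lists (174 symbols, 163 on the array) were chosen with earlier results of these data known. Named genes were all members, the sorting genes, up to 4 called genes per list (largest measured difference in Lin+ over progenitors first, then bounds, or all called where 5 or fewer were), the ITAM and kinase list, each member's neighbours and the 6 genes of nearest profile. Some genes of the lists are not reported here by name or in the profile plot, and the counts of their lists include them. The alternatives numbered 13. The normexp one had been planned on the mean signal, which the files do not hold, and used the median signal with an offset of 50. Analyses used Python 3.11.15, numpy 2.4.6, pandas 2.3.3, matplotlib 3.10.9, R 4.3.3 and limma 3.58.1, and calls were tested on simulated data.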

Additional observations from a re-analysis of the deposited data

How the results depend on the processing

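Counts of called members were recomputed under 13 alternatives, and 127 of 156 counts stayed within 1.5 times. The 127 include counts of 0 that stayed 0, among them every count of members lower in Lin+ cells. Counting only differences with both sides well above background left 2 members higher in Lin+ cells over each of progenitors, ST-HSC and LT-HSC. These were 2 of 5, 2 of 4 and 2 of 4 comparable members, since the other calls are bounds. Over all genes 11.7%, 12.0% and 13.2% were then higher. The members' median differences were 0.25, 0.84 and 0.95 in that order. A 4-fold threshold left 4 higher over ST-HSC and 4 over LT-HSC. For progenitors over ST-HSC and over LT-HSC, the 1 higher member, Cd8a, fell to 0 with normexp, with both sides above background, with the mean of probes and with the dimmest detected probe, and over LT-HSC also to 0 at 4-fold. The 1 lower member, Lck, fell to 0 at 4-fold in both. For progenitors over ST-HSC, 2 were lower with scaling to detected probes, to the median or to spike-ins, with the median gene at 0, with no filter, with the positive-and-significant flag and with the mean of probes. For progenitors over LT-HSC 2 were lower with no filter and with that flag. ST-HSC over LT-HSC then had 1 higher and 1 lower, from values under the background limit, which have no order.

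Scaling moved the whole distribution: the median measured gene in Lin+ over progenitors was -0.42 as reported, 0.18 with spike-ins and -0.49 with median scaling. The share of all calls that were higher was 35.4% there, and 31.9% to 71.0% under the other scalings. It was 42.0% in Lin+ over ST-HSC (30.9% to 56.5%), 41.0% in Lin+ over LT-HSC (30.7% to 55.2%), 49.7% in progenitors over ST-HSC (13.8% to 38.9%), 52.8% in progenitors over LT-HSC (29.2% to 38.8%) and 39.2% in ST-HSC over LT-HSC (34.7% to 62.9%). Applying these scalings to other gene lists was chosen after seeing the data. Of 471 single-member differences 352 moved by less than the combined spot error of their 2 sides, and 119 moved further. For bounds that error included the side under background, where it reached 1.45 on the log2 scale. Bounds could therefore move far and still count as unmoved. Cd247 in Lin+ over progenitors, which lost its call with normexp, was one of these. Called differences kept their sign wherever an alternative gave a value other than 0. Cd8a in progenitors over LT-HSC was 0 with the mean of probes, both sides then being under the background limit, and had no value over either stem cell fraction with the dimmest detected probe. Bounds had no value when both sides had to be above background. No paired analysis was possible because every fraction is labelled replicate 1 and no result comes from a test. Leaving out a replicate was not possible with 1 array per fraction, and levels near background set only bounds.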
